A study of Mus musculus with 6 samples.

Results

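The telomerase and shelterin genes comprised 10 of the 25164 genes in the day 1 ovary table: Terc, Tert, Dkc1, Nhp2, Nop10, Gar1, Terf1, Terf2, Tinf2 and Pot1a. They were chosen by name as components of telomerase and of the protein cover of telomeres, with their values in the present comparison already known. Their differences between the groups are therefore given as a description, and calls made on them in the fit across all genes are counted without being read as evidence. All 10 had a mean of at least 1 FPKM over the libraries, the minimum for the fit across 12442 genes, and each of them also had it within either group.

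RNA-seq was performed on 6 libraries of entire C57BL/6 ovaries labelled day 1. The cKO group held 3 libraries from animals with both Hnrnpl alleles floxed and a Stra8-cre transgene, which drives Cre recombinase in germ cells, and the other 3 libraries came from animals labelled wild type. Whole ovaries also hold somatic cells, so the values mix cells inside and outside the reach of this Cre. Whether replicates stand for separate animals is unlabelled, so errors and p-values measure the spread between these libraries, which may be technical. The protocol mentions a hormone challenge without describing it.

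Estimated depth was 7200000 to 12200000 fragments in the cKO libraries and 11100000 to 14400000 in the wild type libraries. Hnrnpl itself stood at 100.5, 81.5 and 85.2 FPKM in cKO ovaries, against 104.1, 93.8 and 101.9 FPKM in wild type ovaries, so that the groups overlapped. After median-of-ratios scaling, which divides each library by its median ratio to the gene-wise geometric mean, they did not, at 86.9, 84.8 and 87.6 in cKO, against 104.9, 95.7 and 107.3 in wild type, a log2 difference of -0.24 (SE 0.08, limma adjusted p = 0.167). The gene-level value does not show the floxed exons alone. Germ cell, pregranulosa, stroma, surface epithelium and endothelial markers were all detected. Replicate 1 of the cKO group stood apart: in it, genes in the shortest sixth by transcript length lay 0.35 above their means (log2, median), against -0.10 to -0.03 in the other 5 libraries.

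Telomerase adds repeats to chromosome ends by reverse transcription. Its RNA, encoded by Terc, carries the template, and Tert encodes the reverse transcriptase. The end of the RNA folds as an H/ACA RNA, the class that guides pseudouridylation, and is bound by dyskerin (Dkc1) with Nhp2, Nop10 and Gar1. Shelterin coats the repeats: Terf1 and Terf2 bind double-stranded repeats, Pot1a binds the single-stranded overhang, and Tinf2 links them. In meiotic germ cells telomeres attach to the nuclear envelope, and oocytes of a newborn mouse ovary are in or just past that phase.

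Terc is shown because its level carries the difference described next. GENCODE M21 places it on chromosome 3 of GRCm38 (mm10) from 96414437 to 96414859 on the minus strand, a single exon of 423 bases, whereas RefSeq begins the RNA 26 bases later and gives it 397 bases. The first 120 bases from the RefSeq start (chr3:96414714-96414833, minus strand) and the last 60 (chr3:96414437-96414496) are written 5′ to 3′ as DNA letters. Capitals in the first mark bases 2 to 10, the longest stretch of the RNA complementary to the TTAGGG telomere repeat, and capitals in the last mark the ACA of bases 392 to 394.
Terc, first 120 bases: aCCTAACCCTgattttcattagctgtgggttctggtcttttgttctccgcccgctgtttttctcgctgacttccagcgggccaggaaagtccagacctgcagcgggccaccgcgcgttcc
Terc, last 60 bases: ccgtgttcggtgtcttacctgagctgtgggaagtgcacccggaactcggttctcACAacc
Snora7a, last 30 bases: ctggtgattggaagacactctgcaACAtta
Snora7a, a guide RNA of the same class on chromosome 6 (chr6:115807975-115808004, minus strand), is shown for its shared ending and for its opposite difference below. Among the 36 Snora genes measured, 30 have a transcript with ACA ahead of its last 3 bases, as Terc has, and 0 of the 74 Snord genes, which belong to the box C/D class.

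Terc was the member with the largest difference between the groups. It stood at 37.3, 29.8 and 23.0 FPKM in cKO replicates 1 to 3, against 12.1, 10.4 and 12.3 FPKM in wild type replicates 1 to 3. Every cKO value lay above every wild type value, and the cKO libraries differed among themselves more than the wild type libraries did. The means were 30.0 ± 7.19 FPKM in the cKO group, against 11.6 ± 1.08 FPKM in the wild type group (SD, n = 3 each), a ratio of 2.59. On the log2(FPKM + 1) scale the difference was 1.28 (SE 0.17), and 41 of the 12442 genes had a larger positive one. Genes lower in cKO, whatever the size of their difference, are not in that count.

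For the length of 423 bases, the FPKM of Terc correspond to an estimated 114, 135 and 118 fragments in the cKO libraries, against 74.0, 60.5 and 57.9 in the wild type libraries. The cKO libraries thus held more Terc fragments although 2 of them were shallower than every wild type library. These numbers use the whole transcript length, while a short RNA offers fewer positions to a fragment, so they are upper estimates.

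Tert, the catalytic subunit, did not separate the groups. The gene lies on chromosome 13 from 73626911 to 73649843 (plus strand; GENCODE M21, GRCm38, as for all members). It was measured at 2.88, 2.80 and 2.26 FPKM in cKO, against 2.36, 2.47 and 2.46 FPKM in wild type. The groups overlapped, with cKO replicate 3 below all wild type libraries and the other two cKO libraries above them. The log2 difference was 0.08 (SE 0.12), close to the median of all tested genes, 0.08. Divided by Tert in the same library, Terc stood at 13.0, 10.7 and 10.1 in cKO, against 5.149, 4.196 and 5.003 in wild type.

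**Figure D1:**
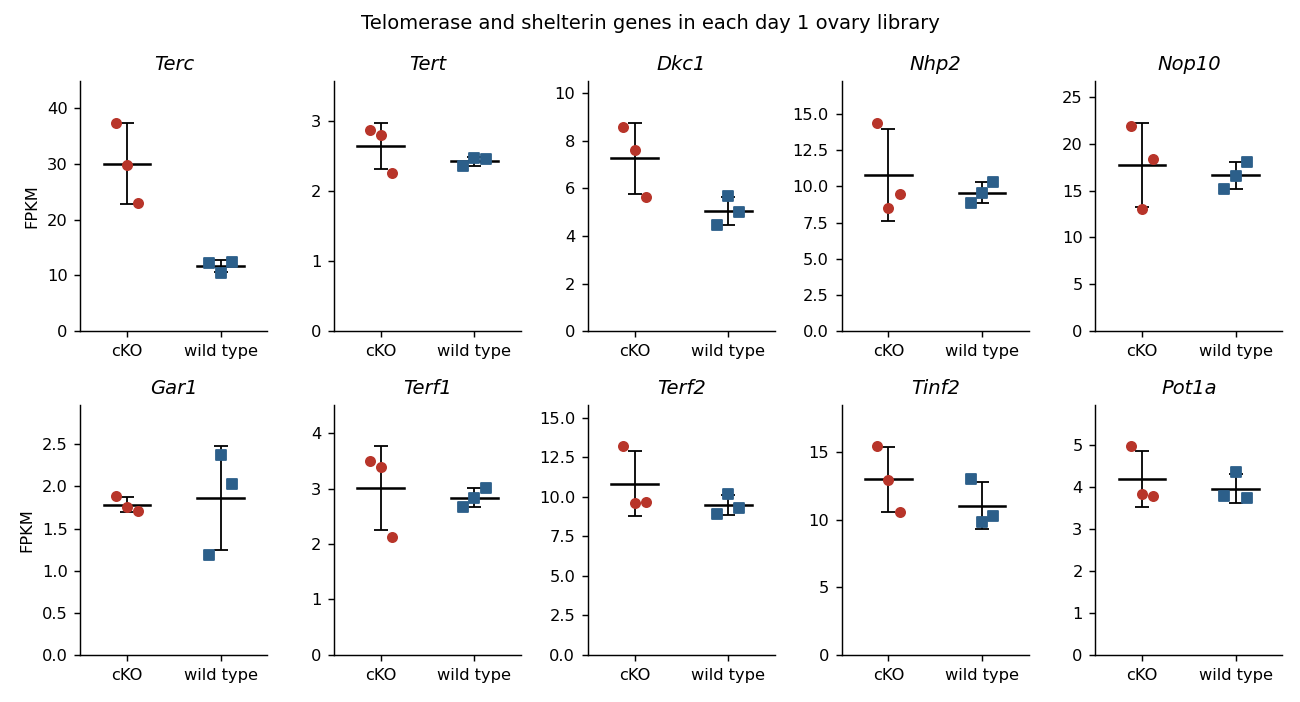
FPKM of the 10 genes in each library (y axes, each from 0), cKO as circles and wild type as squares, with the mean (horizontal line) and SD (bars, n = 3). Terc separates the groups, at 23.0 to 37.3 FPKM in cKO against 10.4 to 12.3 FPKM in wild type, while the groups overlap in each of the other 9 panels.

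Among the H/ACA proteins, Dkc1, the pseudouridine synthase, had the largest difference. The gene lies on chromosome X from 75095854 to 75109777 (plus strand). Dkc1 stood at 8.55, 7.61 and 5.64 FPKM in cKO, against 4.473, 5.673 and 4.996 FPKM in wild type. The groups touched, since cKO replicate 3 lay just below wild type replicate 2. The log2 difference was 0.44 (SE 0.15), which placed Dkc1 above 94.1% of tested genes. After median-of-ratios scaling Dkc1 stood at 7.39, 7.91 and 5.80 in cKO, against 4.50, 5.79 and 5.26 in wild type. The groups then nearly touched, with cKO replicate 3 at 5.801 barely above wild type replicate 2 at 5.790. The share of all tested genes without overlap after scaling was not computed. Relative to Dkc1 in the same library, Terc was 4.37, 3.92 and 4.07 in cKO, against 2.71, 1.83 and 2.47 in wild type.

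The 3 small partners of dyskerin did not separate the groups. Nhp2, which binds the RNA next to dyskerin, stood at 14.4, 8.50 and 9.46 FPKM in cKO, against 8.83, 9.56 and 10.3 FPKM in wild type. Nop10, which holds dyskerin and Nhp2 together, stood at 21.9, 13.0 and 18.4 FPKM in cKO, against 15.2, 16.6 and 18.1 FPKM in wild type. In both genes cKO replicate 1 lay above the wild type range and cKO replicate 2 below it. Gar1, a subunit that joins the mature particle, stood at 1.88, 1.75 and 1.71 FPKM in cKO, against 1.18, 2.37 and 2.03 FPKM in wild type, so that all cKO values lay inside the wild type range. The log2 differences were 0.13 (SE 0.18), 0.06 (SE 0.18) and -0.02 (SE 0.18) for Nhp2, Nop10 and Gar1. The genes lie on chromosome 11 from 51619735 (Nhp2), on chromosome 2 from 112261926 (Nop10) and on chromosome 3 from 129824912 (Gar1). Their longest transcripts have 1042, 1109 and 1271 bases, the shortest of the members after Terc, and short transcripts were higher in cKO replicate 1. With trends on length and GC removed library by library, the log2 differences were 0.07 (SE 0.15) for Nhp2, -0.04 (SE 0.15) for Nop10 and -0.07 (SE 0.18) for Gar1, and that of Terc was 1.18 (SE 0.20).

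The genes of the telomere-binding shelterin proteins overlapped between the groups. Terf1, whose product binds telomere repeats and limits telomere length, stood at 3.49, 3.39 and 2.14 FPKM in cKO, against 2.66, 2.84 and 3.01 FPKM in wild type. The lowest and the highest value both belonged to cKO libraries. Terf2, whose product shields chromosome ends from the damage response, stood at 13.2, 9.62 and 9.67 FPKM in cKO, against 8.92, 10.2 and 9.28 FPKM in wild type. Apart from cKO replicate 1, its values lay within the wild type range. Pot1a, one of a pair of mouse POT1 genes, stood at 4.96, 3.83 and 3.78 FPKM in cKO, against 3.77, 4.35 and 3.73 FPKM in wild type. The log2 differences were 0.05 (SE 0.16) for Terf1, 0.17 (SE 0.13) for Terf2 and 0.06 (SE 0.12) for Pot1a. Terf1 lies on chromosome 1 from 15805646 to 15844052, Terf2 on chromosome 8 from 107069400 to 107096547 and Pot1a on chromosome 6 from 25743737 to 25809246.

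Tinf2, which bridges Terf1 and Terf2, stood at 15.4, 12.9 and 10.6 FPKM in cKO, against 13.0, 9.81 and 10.3 FPKM in wild type. The groups overlapped, and the log2 difference was 0.21 (SE 0.16). Tinf2 lies on chromosome 14 from 55674689 to 55681820 (minus strand). Its annotated span overlaps Gmpr2 on the opposite strand over 4512 bases, and no source used here says whether counting used strand. Gmpr2 stood at 7.37, 6.33 and 5.38 FPKM in cKO, against 5.94, 4.24 and 4.39 FPKM in wild type, and fragments of the overlap may have been assigned to either gene. Dkc1 shares 45 bases with Mpp1 and Nhp2 shares 44 bases with Rmnd5b in the same way.

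**Figure D2:**
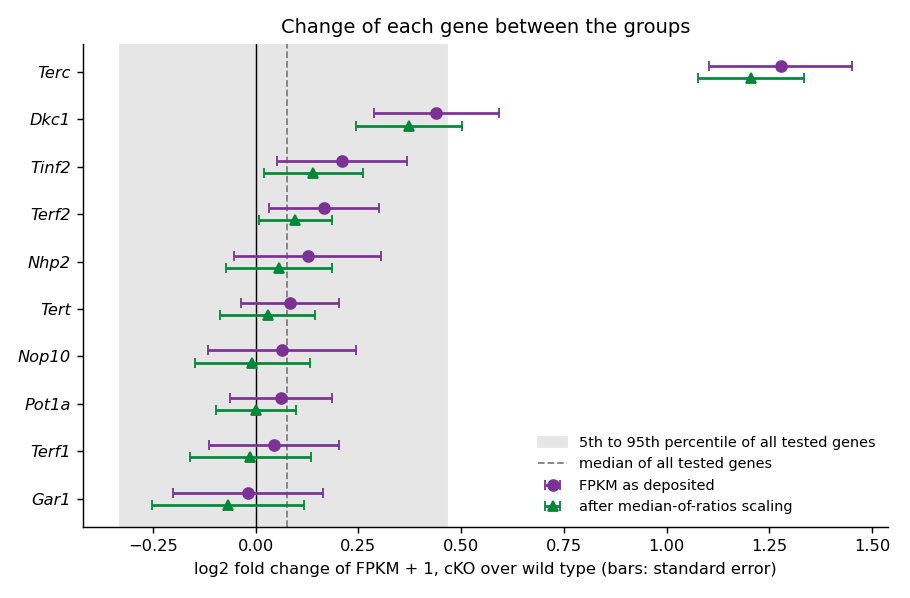
Log2 fold change of FPKM + 1, cKO over wild type (x axis), for each gene (y axis), with standard errors as bars, from FPKM as deposited (circles) and after median-of-ratios scaling (triangles). The grey band holds the 5th to 95th percentile of all tested genes, -0.33 to 0.47, and Terc, at 1.28 and 1.21, is the member outside it.

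In the fit across all genes by limma with Benjamini-Hochberg adjustment, 0 of the 10 members were called, beside 0.121% of the tested genes, while 2 of 10, Terc and Dkc1, had an unadjusted p under 0.05, beside 14.2% of the tested genes. After median-of-ratios scaling 1 of 10 was called, Terc, beside 1.29% of tested genes. Members whose groups did not overlap numbered 1 higher in cKO, beside 15.5% of tested genes, and 0 lower, beside 7.03%. Since the comparison was known when the genes were chosen, nothing is read from these counts. The log2 difference was positive in 9 of the 10 genes, with a median of 0.11, and in 8108 of all 12442 tested genes, with a median of 0.08. Terc was called in 7 of 15 alternatives, among them those without cKO replicate 1 and without cKO replicate 3, and no other member was called in any of the 15. Across the same alternatives the log2 difference of Terc ran from 1.08 to 1.45.

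FPKM are scaled to transcript length, and the levels are ordered as deposited. The length that the authors used for each gene is not known, and for an RNA as short as Terc the level depends on it, so the place of Terc among the other genes is uncertain. In cKO ovaries Terc was highest, and its 3 values lay above those of Nop10, which came next at 17.7 ± 4.49 FPKM. Tinf2, Terf2, Nhp2 and Dkc1 followed at means of 13.0 to 7.27 FPKM, and the ranges of neighbours from Nop10 to Dkc1 overlapped. Pot1a at 4.19 ± 0.664 FPKM was separate from both neighbours, Terf1 and Tert overlapped, and Gar1 was lowest at 1.78 ± 0.0895 FPKM without overlap. In wild type ovaries Nop10 was highest at 16.6 ± 1.43 FPKM and did not overlap with Terc, which came next. From Terc to Tinf2, Nhp2 and Terf2, at means of 11.6 to 9.45 FPKM, the ranges of neighbours overlapped. Dkc1 at 5.05 ± 0.601, Pot1a at 3.95 ± 0.349 and Terf1 at 2.84 ± 0.173 FPKM were each separate from their neighbours, while Tert and Gar1 overlapped as the lowest (SD, n = 3 throughout).

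Terc encodes a structural RNA, so other structural RNAs of the same libraries were set beside it. Rmrp and Rpph1, the RNAs of RNase MRP and RNase P, averaged 1.73 and 1.56 times the wild type mean in cKO. Rmrp stood at 28621, 15111 and 19125 FPKM in cKO, against 11012, 11324 and 14074 FPKM in wild type, so it too was higher in every cKO library. The same held for Rpph1, at 15771, 10337 and 9857 FPKM in cKO, against 8671, 6756 and 7653 FPKM in wild type. Of all tested genes, 15.5% were likewise higher in cKO without overlap. The log2 differences were 0.75 (SE 0.64) for Rmrp and 0.61 (SE 0.52) for Rpph1. Divided by the sum of Rmrp and Rpph1, Terc was 0.841, 1.17 and 0.792 per 1000 FPKM in cKO ovaries, against 0.617, 0.573 and 0.567 per 1000 FPKM in wild type. The groups still did not overlap, at a ratio of 1.60 between their means. The precursor of ribosomal RNA, Rn45s, could not be compared. It was listed at 0 in replicate 2 of both groups and at 11790 to 17704 FPKM in the other libraries.

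The Snora genes, whose H/ACA guide RNAs use the same proteins as Terc, varied in both directions. Of 32 tested Snora genes 21 had positive and 11 negative log2 differences, with a median of 0.30, against 0.08 over all tested genes. Their summed FPKM were 4087, 2407 and 2352 in cKO, against 2272, 1664 and 2817 in wild type, so the groups overlapped. In single genes the groups did not overlap in 3 that were higher and 2 that were lower in cKO, beside 15.5% and 7.03% of tested genes. Snora24 and Snora34 had higher log2 differences than Terc, 1.35 (SE 0.55) and 1.30 (SE 0.45), both without overlap and neither called (limma). Snora7a lay lower in cKO, at 24.8, 12.8 and 17.3 FPKM, against 31.3, 39.7 and 35.0 FPKM in wild type. Its log2 difference of -0.96 (SE 0.22) did not pass (limma adjusted p = 0.148) but did after median-of-ratios scaling (limma adjusted p = 0.0344). Guide RNAs are shorter than many fragments, which makes their FPKM imprecise, and 3 of the 32 tested Snora genes were listed at 0 in at least 1 library.

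**Figure D3:**
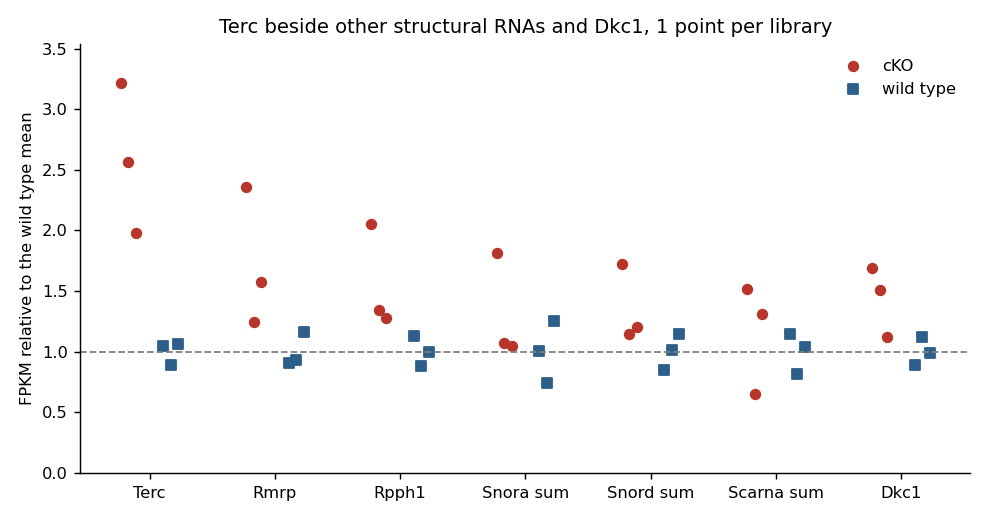
FPKM relative to the wild type mean (y axis) of Terc, Rmrp, Rpph1, the summed Snora, Snord and Scarna genes, and Dkc1, with 1 point per library, cKO as circles and wild type as squares. Terc lies at 1.98 to 3.22 in cKO, whereas the Snora sum lies at 1.05 to 1.82 in cKO and overlaps its wild type points.

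Across all 108 tested structural RNAs and snoRNA host genes, 0 were called (limma), while 21 had an unadjusted p under 0.05, of which 12 were higher and 9 lower in cKO, beside 1231 higher and 530 lower among all 12442 tested genes. Their median log2 difference was 0.24. Of the 108, 9 had a higher log2 difference than Terc, beside 41 of all 12442, and several of the 9 were listed at 0 in part of the libraries. Snora24, Snora34 and Scarna3b were above 0 in every library. Scarna3b stood at 35.0, 7.11 and 14.8 FPKM in cKO, against 6.92, 3.72 and 3.24 FPKM in wild type. Its log2 difference was 1.62 (SE 0.49, limma adjusted p = 0.228). Besides Snora7a, the smallest p belonged to Snord8, a box C/D RNA, and to Snhg15, a snoRNA host gene. Snord8 stood at 232.2 ± 57.5 FPKM in the cKO group, against 110.5 ± 27.2 FPKM in the wild type group (SD, n = 3), with a limma adjusted p of 0.148 and, after scaling, of 0.0454. Snhg15 stood at 1.31 ± 0.371 FPKM in the cKO group, against 2.80 ± 0.838 FPKM in the wild type group (limma adjusted p = 0.205).

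The remaining telomere genes were described from lists set by function. Of the other shelterin genes and the CST complex with DNA polymerase alpha-primase, 5 of 10 tested genes were positive and 5 negative, with a median log2 difference of -0.01. None of the 10 was called (limma), and 0 had an unadjusted p under 0.05. Ctc1, the largest CST subunit, stood at 9.94 ± 1.80 FPKM in the cKO group, against 8.49 ± 0.344 FPKM in the wild type group (limma adjusted p = 0.513). Ten1, another CST subunit, had a log2 difference of -0.25 (SE 0.24), and Terf2ip, the shelterin protein RAP1, one of 0.10 (SE 0.11). Pot1b, the paralog of Pot1a, stood at 2.28, 2.26 and 2.93 FPKM in cKO, against 2.30, 2.81 and 2.13 FPKM in wild type.

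Factors that assemble telomerase or mature its RNA had 14 of 21 tested genes positive and a median log2 difference of 0.07. None was called (limma), and 1 had an unadjusted p under 0.05. That gene was Nat10, an RNA acetyltransferase, at 4.64 ± 0.464 FPKM (cKO) against 3.56 ± 0.326 FPKM (wild type; SD, n = 3 each), with a limma adjusted p of 0.290. Parn, a ribonuclease that trims the tail of human telomerase RNA, had a log2 difference of 0.18 (SE 0.10). Shq1, an early chaperone of dyskerin, had one of -0.23 (SE 0.13), and its values of 1.63, 1.64 and 1.66 FPKM in cKO all lay below the 2.47, 2.05 and 1.81 FPKM of wild type. Naf1, which precedes Gar1 on the particle, stood at 6.68, 5.16 and 4.54 FPKM in cKO, against 3.66, 4.78 and 4.80 FPKM in wild type.

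Genes of telomere replication and repair had 18 of 27 members positive and a median of 0.05, with 0 called (limma) and 1 with an unadjusted p under 0.05. Xrcc5 and Xrcc6 encode the Ku heterodimer of end joining, and Fen1 a flap endonuclease. Their log2 differences were 0.33 (SE 0.14), 0.44 (SE 0.22) and 0.27 (SE 0.13), with limma adjusted p of 0.340, 0.414 and 0.378. The nucleolar and box C/D list had 15 of 17 members positive and a median of 0.15, with 0 called and 0 with an unadjusted p under 0.05. Its smallest p belonged to Snu13, Nop14 and Fbl, at log2 differences of 0.31 (SE 0.14), 0.37 (SE 0.17) and 0.41 (SE 0.23).

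Among 11 listed genes of meiotic telomere attachment, 6 were tested, 5 of them positive, with a median of 0.10, 0 called (limma) and 1 with an unadjusted p under 0.05. That gene was Fbxo47, an F-box protein of mouse meiosis, at 2.85, 1.90 and 1.85 FPKM in cKO, against 1.33, 0.773 and 0.717 FPKM in wild type. Its values did not overlap, at a log2 difference of 0.72 (SE 0.19, limma adjusted p = 0.190). Trip13, an ATPase that remodels meiotic axes, had a log2 difference of 0.40 (SE 0.20), and Cdk2, a kinase found at meiotic telomeres, one of 0.13 (SE 0.11). The genes of 3 proteins that dock telomeres at the inner nuclear membrane were low: Terb1 stood at 1.06, 0.743 and 0.596 FPKM in cKO, against 0.811, 0.780 and 0.822 FPKM in wild type, while Terb2 and Majin stayed at 0.321 FPKM or less in every library.

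**Figure D4:**
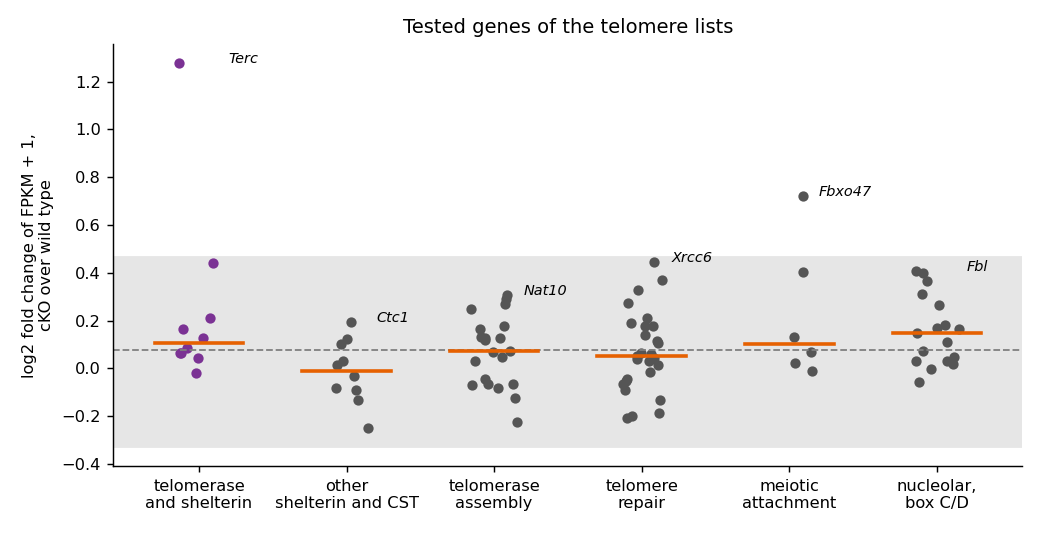
Log2 fold change of FPKM + 1, cKO over wild type (y axis), of each tested gene in the 10-gene group and 5 related lists (x axis), with the list median as a bar, the median of all tested genes as a dashed line and their 5th to 95th percentile as the grey band. Terc at 1.28 and Fbxo47 at 0.72 are the points above the band.

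Markers of cell types differed along with Terc. Of 16 germ cell markers 11 were positive and 5 negative, with a median log2 difference of 0.57, and 1 was called, Zp3 of the egg coat, which fell to 2.19 ± 0.190 FPKM in the cKO group, against 8.26 ± 2.23 FPKM in the wild type group (limma adjusted p = 0.0437). After median-of-ratios scaling 6 of the 16 were called (limma), Tex15, Kit, Sohlh1 and Dazl higher in cKO and Zp3 and Gdf9 lower. Tex15, a meiotic gene, had 27.1, 23.8 and 19.5 FPKM in cKO, against 10.7, 13.1 and 10.8 FPKM in wild type (limma adjusted p = 0.0619, and 0.0169 after scaling). The summed germ cell markers were 412.1, 308.3 and 233.4 FPKM in cKO, against 225.3, 233.6 and 202.5 FPKM in wild type, and none was at 0. The groups met in these sums, with cKO replicate 3 just under wild type replicate 2. Among cKO libraries the sums ran in the order of Terc. Among wild type libraries replicate 3 had the most Terc and the lowest sum, and replicate 2 the least Terc and the highest sum. The wild type values lay close together, Terc at 10.4 to 12.3 FPKM and the sums at 202.5 to 233.6 FPKM. With 3 libraries a group, nothing is read from either order. Divided by that sum, Terc was 90.6, 96.7 and 98.4 per 1000 FPKM in cKO ovaries, against 53.9, 44.4 and 60.8 per 1000 FPKM in wild type, without overlap. The sum mixes markers that were higher with markers that were lower in cKO. Dazl, the most positive of the 16, had a log2 difference of 1.28 (SE 0.27) and a ratio of 2.69, beside 2.59 for Terc. In a bulk tissue, more cells of a type and more RNA per cell cannot be told apart.

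Somatic marker lists lay lower in cKO or varied little. All 10 stroma markers were negative with a median of -0.34, and their sum was 818.4 to 895.1 FPKM in cKO against 1058 to 1108 FPKM in wild type. All 9 surface epithelium markers were negative and 1 of them was called (limma), with sums of 172.0 to 263.2 FPKM in cKO, against 272.4 to 293.5 FPKM in wild type, and all 8 endothelial markers were negative, with sums of 70.4 to 90.7 FPKM in cKO, against 91.2 to 112.9 FPKM in wild type. Smooth muscle markers had 6 of 6 tested genes negative, macrophage markers 4 of 5 and erythroid markers 4 of 5, and the erythroid sum was 462.6 to 533.9 FPKM in cKO, against 771.7 to 836.2 FPKM in wild type. Of 13 tested pregranulosa markers 6 were positive and 7 negative. The proliferation markers had 5 of 8 positive and a median of 0.02. The part of cell composition in the level of Terc was not tested.

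Most genes flanking Terc were barely detected. Within 150000 bases to either side, 5 other genes of the table were annotated, and 4 of them stayed below 1 FPKM in every library. The fifth, Txnip, a regulator of thioredoxin that starts at 96557957 on the same chromosome, stood at 237.4, 186.1 and 198.2 FPKM in cKO, against 179.9, 175.5 and 164.0 FPKM in wild type.

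Genes with the most similar profile over the 6 libraries were ranked by the root mean square difference of centred log2(FPKM + 1). For Terc, whose own spread on that measure was 0.67, they were Dusp9, a MAP kinase phosphatase, at 0.067, Ckb, the brain-type creatine kinase, at 0.081, and Ubap1l at 0.087. Ckb stood at 83.7, 67.3 and 49.1 FPKM in cKO, against 26.3, 25.1 and 24.8 FPKM in wild type. For Dkc1, with a spread of 0.28, they were Rnf115, a ubiquitin ligase, at 0.036, Hat1, a histone acetyltransferase, at 0.051, and Rabggta, a subunit of a prenyl transferase, at 0.055. For Terf1, with a spread of 0.17, they were Sod3, an extracellular superoxide dismutase, at 0.037, Fbxo5, an inhibitor of the anaphase-promoting complex, at 0.039, and Mcat, an enzyme of mitochondrial fatty acid synthesis, at 0.048.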

How the data were processed

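Total RNA of whole ovaries was measured in 3 cKO and 3 wild type libraries, and the authors deposited 1 table of FPKM values with a column per sample. The submitters' processing notes list HISAT2 2.2.1, STAR 2.7.11a and featureCounts 2.0.6 with the mm10 build, giving no roles. The program and annotation behind the FPKM are not given in the sources used here. Per the labels' protocols, libraries came from amplified cDNA.

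Values were taken to log2(FPKM + 1). The 12442 genes averaging at least 1 FPKM entered limma 3.58.1 (R 4.3.3, trended prior variance), and two-sided p-values were adjusted by Benjamini and Hochberg over all of them, with 0.05 as the limit for a call. The fold change on this scale understates the change of low genes. The fit was tested on simulated data. Lengths, GC content and positions came from GENCODE M21, with a length for 12194 tested genes, and the RefSeq start of Terc from GRCm38.p6. Depth was estimated from the smallest FPKM steps of 2437 genes with 1 transcript of at least 1500 bases, assuming fragments of 200 bases.

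The members and lists were chosen with earlier results of these data known. The text names all members, the 3 genes of each list with the smallest p, and the 3 nearest profiles of Terc, Dkc1 and Terf1. Pot1b, Naf1, Terb1, Terb2, Majin, Gmpr2, Txnip, Rmrp, Rpph1, Rn45s, Snora24, Snora34, Scarna3b, Zp3, Tex15, Kit, Sohlh1, Dazl and Gdf9 were added after their values were seen. The length and GC correction removed a spline trend (4 degrees of freedom each) from each library.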

Additional observations from a re-analysis of the deposited data

How the results depend on the processing

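The 15 genes called over the whole table, 6 higher and 9 lower in cKO, became 34 with a pseudocount of 0.1 FPKM, 1 with no filter, 23 when genes had to average 5 FPKM, 28 with the length and GC correction and 5 with no intensity trend. Scaling moved the split too: 161 genes were called after median-of-ratios scaling (100 higher, 61 lower), 236 after quantile normalization (131 higher, 105 lower) and 117 after TPM rescaling (47 higher, 70 lower). Leaving out 1 library gave 2 to 89 calls: 89, 4 and 74 without cKO replicates 1, 2 and 3, and 2, 2 and 6 without wild type replicates 1, 2 and 3. The count of members called was 0 and became 1, Terc, with a pseudocount of 0.1 FPKM, a minimum average of 5 FPKM, median-of-ratios scaling, quantile normalization or TPM rescaling, and 0 to 1 when a library was left out. Of the list genes, 0 were called, against 2 after median-of-ratios scaling, 2 after quantile normalization, 1 after TPM rescaling and 0 to 2 when a library was left out. The cause of these shifts was not tested.

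The log2 difference of Terc kept its direction in all 15 alternatives and stayed within 1 residual SD (0.26) of its value. That of Dkc1 ran from 0.26 to 0.59 and that of Tinf2 from 0.02 to 0.34, while the other 7 members took both signs. The order of levels by the mean over both groups together was recomputed only after median-of-ratios scaling and without each library. It kept 10 of 10 places in the first and 8 to 10 in the others, with 8 without cKO replicate 1 and without wild type replicate 3. The separate orders of the cKO and wild type groups were not recomputed. With replicate number as a block 2 genes and 0 members were called. Deviations of same-numbered libraries correlated at -0.011, 0.039 and 0.068, and those of differently numbered libraries at -0.066 to 0.028. Correlations this weak cannot tell whether same-numbered libraries shared a step of processing. Rn45s was listed at 0 in replicate 2 of both groups, and a batch by replicate number is not labelled. Scaling moved the median of all genes from 0.08 to 0.01. Gar1, at about 17 to 42 fragments a library, is the member most limited by depth.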
